A study of Homo sapiens with 24 samples.

Results

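ARPE-19 cells, an established human line of retinal pigment epithelium (RPE), that received siRNA against both Nrf2 and Pink1 were compared with ARPE-19 cells that received siRNA against Pink1 alone. This shows what Nrf2 siRNA adds where the PINK1 message is already low. RNA alone was measured here, and loss of NRF2 cannot be told apart from any other effect of adding that siRNA. The members were chosen by their labels: 12 of the 24 deposited samples, which are 6 of the 12 biological samples, 3 with the double siRNA and 3 with Pink1 siRNA, each sequenced as a technical pair that was averaged. Cells given Nrf2 siRNA and cells given a scramble siRNA (3 biological samples each) serve to show the effect of Nrf2 siRNA on a background with normal PINK1. All groups share the cell line, and the labels' protocols also describe a scratch wound, and do not state whether wounded cells gave the RNA. The labels call the groups knockouts, whereas the series describes siRNA; they are treated here as siRNA, which lowers a message without removing the gene. The labels number the biological replicates without saying what separates them, so p-values measure the spread between these samples, which may be technical.

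NRF2, the protein of NFE2L2, is a transcription factor that KEAP1 holds at a low level by marking it for degradation. When oxidants or electrophiles disable KEAP1, NRF2 enters the nucleus, pairs with a small MAF protein and binds the antioxidant response element in front of genes for quinone reduction, glutathione and thioredoxin chemistry, heme breakdown and NADPH supply. PINK1 is a kinase that accumulates on damaged mitochondria and starts their labelling with ubiquitin for removal by autophagy. RPE cells work under strong light and high oxygen use, and both pathways are studied there for that reason.

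Values are TPM, transcript abundance corrected for gene length and scaled to the same total in every sample; the depth behind them is unknown. Differences are on the log2(TPM + 1) scale, double siRNA minus Pink1 siRNA unless another pair is named, and a gene was called when its limma p, adjusted by Benjamini-Hochberg over all 13810 genes tested, was under 0.05. A gene whose 3 double siRNA samples all lay on the same side of its 3 Pink1 siRNA samples is described as not overlapping. With 3 samples against 3, an exact two-sided permutation test of a single gene cannot go below 0.1.

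By the spread of their values, the double siRNA samples were less alike than those of any other group. Over the 4935 genes that averaged 20 TPM or more, the between-sample SD of the log2 values had a median of 0.316 with the double siRNA and 0.173 with Pink1 siRNA, against 0.167 with Nrf2 siRNA and 0.122 with scramble. An identifier without a gene name, ENSG00000226958, took 41.4%, 29.4% and 15.5% of all TPM in double siRNA samples 1, 2 and 3, against 35.5%, 32.3% and 24.8% in Pink1 siRNA samples 1, 2 and 3. Double siRNA samples 1 and 3 therefore stand apart, and where leaving out either turns or clearly moves a count or median given here, that value is printed. The cells carried the RPE factors MITF, between 59.2 and 110 TPM, and OTX2, between 47.7 and 93.8 TPM, in these 6 samples, and the keratins KRT8 and KRT18. The visual cycle enzyme RPE65, a defining product of mature RPE, was at most 0.32 TPM in them. Of markers of other cells, the blood gene PTPRC was at most 0.445 TPM and the endothelial gene VWF at most 0.675 TPM. The 2 of 8 blood markers found in the table summed to between 34.1 and 52.5 TPM with the double siRNA. With Pink1 siRNA they summed to between 25.3 and 30.95 TPM. Nearly all of this was CD68, a macrophage and lysosome gene given further below. Summed, 5 of 7 neural and glial markers found in the table came to between 42.8 and 61.5 TPM with the double siRNA and between 55.6 and 68.9 TPM with Pink1 siRNA, and 4 of 9 photoreceptor markers to between 4.75 and 9.82 TPM with the double siRNA and between 7.03 and 10.4 TPM with Pink1 siRNA.

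Each siRNA's own target was examined first. NFE2L2 (ENSG00000116044) had 22.2, 30.1 and 34.4 TPM with the double siRNA, against 64.1, 70.4 and 71.6 TPM with Pink1 siRNA. The groups did not overlap, and the double siRNA mean was 42.0% of the Pink1 siRNA mean. The log2 difference was -1.24 (SE 0.25), which limma did not call (adjusted p = 0.165); it was called in 2 of 17 alternative settings, leaving aside a fit with sample weights that did not converge. Under Nrf2 siRNA alone NFE2L2 had 25.05, 11.1 and 23.9 TPM, against 89.2, 74.3 and 78.5 TPM with scramble, a mean of 24.8% of scramble that limma called (adjusted p = 0.00523). The difference between these 2 effects, 0.79 on the log2 scale (SE 0.36), was not called (adjusted p = 0.8995). PINK1 (ENSG00000158828) was low in both groups, with 15.3, 20.5 and 20.2 TPM with the double siRNA and 13.2, 12.4 and 18.3 TPM with Pink1 siRNA. These groups overlapped (log2 difference 0.34, SE 0.17, adjusted p = 0.888), whereas Nrf2 siRNA and scramble samples all had at least 50.7 TPM of PINK1.

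Between double siRNA and Pink1 siRNA limma called 6 genes, 0.0434% of the 13810 tested. Of these, 3 were lower (0.0217%) and 3 higher (0.0217%). At an unadjusted p under 0.05 there were 801 (5.8%), 337 higher (2.44%) and 464 lower (3.36%), and the groups did not overlap in 1223 (8.86%), 439 higher (3.18%) and 784 lower (5.68%). The median log2 difference over all genes was -0.01.

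**Figure D1:**
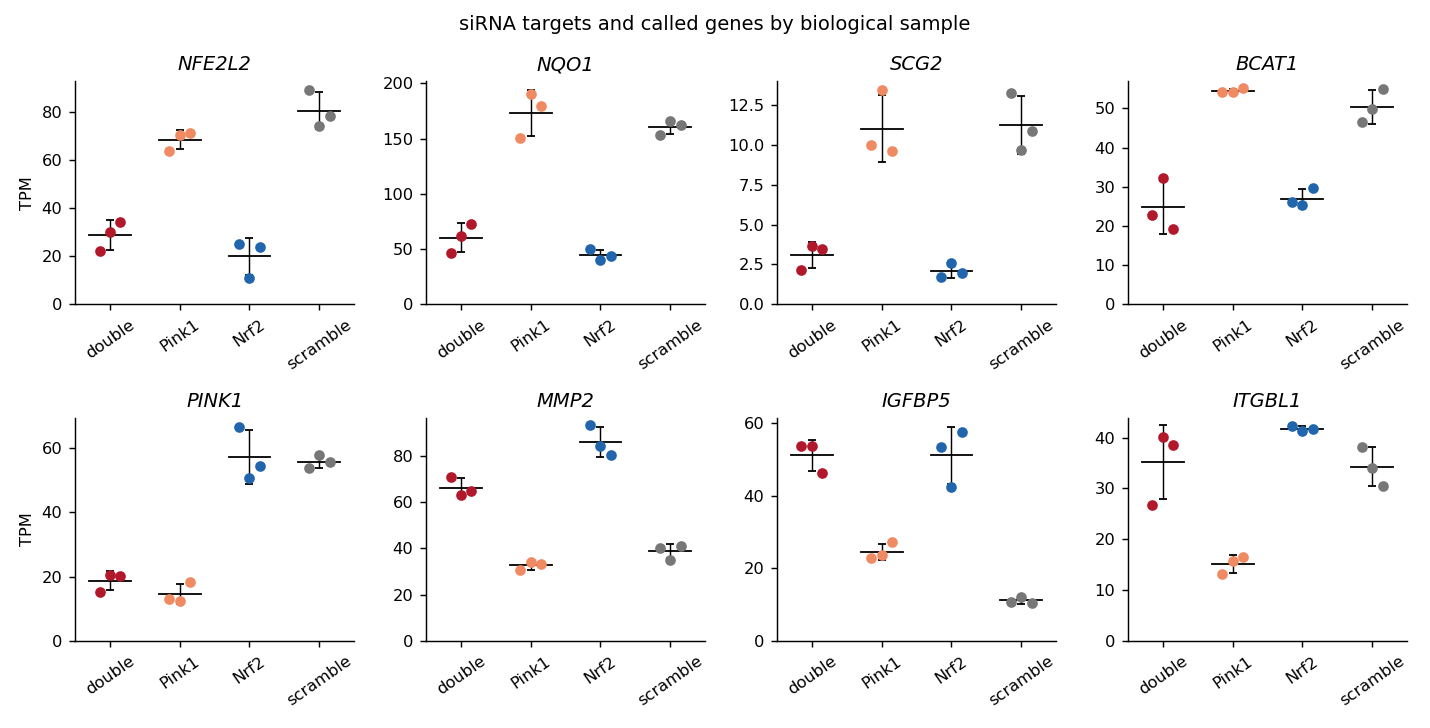
TPM of the siRNA targets NFE2L2 and PINK1 and of the 6 called genes in each biological sample (points), with the group mean and SD (lines), for double siRNA, Pink1 siRNA, Nrf2 siRNA and scramble from left to right. In the 6 called genes the double siRNA samples lie apart from the Pink1 siRNA samples: NQO1 is at most 72.4 TPM with the double siRNA and at least 150 TPM with Pink1 siRNA.

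NQO1 (ENSG00000181019), the quinone reductase that is the standard readout of NRF2 activity, had 46.6, 61.9 and 72.4 TPM with the double siRNA, against 150.3, 191 and 179 TPM with Pink1 siRNA. Every double siRNA sample lay far below every Pink1 siRNA sample. The mean was 60.3 ± 13.0 TPM with the double siRNA and 173 ± 20.8 TPM with Pink1 siRNA (SD, n = 3 each), and limma called the fall (log2 difference -1.52, SE 0.17, adjusted p = 0.00811). NQO1 was called in 5 of 6 leave-outs of a single sample and in 15 of 17 alternatives. Nrf2 siRNA gave 49.7, 40.3 and 43.5 TPM, against 153, 166 and 163 TPM with scramble.

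SCG2 (ENSG00000171951), secretogranin II, a protein of regulated secretory granules, had 2.17, 3.68 and 3.44 TPM with the double siRNA, against 9.98, 13.4 and 9.66 TPM with Pink1 siRNA. It fell by 1.56 on the log2 scale (SE 0.21, limma adjusted p = 0.0201), with no overlap. Nrf2 siRNA samples lay at 1.74, 2.61 and 1.98 TPM, against 13.3, 9.66 and 10.9 TPM with scramble, so both groups given Nrf2 siRNA were low. BCAT1 (ENSG00000060982), the cytosolic enzyme that transfers the amino group of leucine, isoleucine and valine, had 22.8, 32.3 and 19.1 TPM with the double siRNA, against 54.2, 54.2 and 55.1 TPM with Pink1 siRNA. Its fall was 1.14 on the log2 scale (SE 0.17, limma adjusted p = 0.0380), and in Nrf2 siRNA samples it had 26.01, 25.2 and 29.7 TPM, against 46.5, 49.8 and 54.95 TPM with scramble.

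The called higher genes all encode secreted proteins, of which MMP2 and IGFBP5 act in the matrix and growth factor system. MMP2 (ENSG00000087245), the gelatinase that cleaves denatured collagen and basement membrane, had 70.8, 63.2 and 64.6 TPM with the double siRNA, against 30.7, 34.2 and 33.1 TPM with Pink1 siRNA. It rose by 0.998 on the log2 scale (SE 0.13, limma adjusted p = 0.0201), and its samples were tight in both groups. Nrf2 siRNA gave 93.3, 84.2 and 80.4 TPM of MMP2, against 40.1, 35.2 and 41.02 TPM with scramble. IGFBP5 (ENSG00000115461), which binds insulin-like growth factors outside the cell, had 53.7, 53.7 and 46.2 TPM with the double siRNA, against 22.8, 23.7 and 27.2 TPM with Pink1 siRNA (a rise of 2.04-fold, log2 SE 0.15, limma adjusted p = 0.0311). With Nrf2 siRNA it had 53.5, 42.5 and 57.8 TPM, against 10.9, 12.2 and 10.4 TPM with scramble. The double siRNA and Nrf2 siRNA samples thus overlapped, while the Pink1 siRNA samples all lay above the scramble samples; the difference between the 2 effects was -1.06 on the log2 scale (SE 0.21) and was not called (limma adjusted p = 0.271).

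ITGBL1 (ENSG00000198542), a secreted protein with integrin-like repeats, had 26.8, 40.2 and 38.5 TPM with the double siRNA, against 13.2, 15.7 and 16.5 TPM with Pink1 siRNA. It rose 2.21-fold (log2 SE 0.17, limma adjusted p = 0.0311). Nrf2 siRNA samples, at 42.3, 41.2 and 41.6 TPM, lay above scramble samples, at 38.2, 34.01 and 30.5 TPM, by 0.28 on the log2 scale, which was not called (adjusted p = 0.545). Pink1 siRNA is the group in which ITGBL1 was low. Leaving out single samples in turn, SCG2 and MMP2 were each called 3 times of 6, IGFBP5 2 times, and ITGBL1 and BCAT1 once each, with no change of sign. In a fit of the double siRNA and Pink1 siRNA samples alone none was called, with adjusted p between 0.331 for MMP2 and 0.743 for ITGBL1 and BCAT1.

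The genes next in order of p were not called. Among those higher with the double siRNA, PTPRB, a receptor tyrosine phosphatase, had 8.34, 11.4 and 10.4 TPM, against 4.22, 5.25 and 4.12 TPM with Pink1 siRNA (adjusted p = 0.0611). FGF1, a fibroblast growth factor, had 14.9, 20.6 and 14.8 TPM with the double siRNA, against 7.41, 4.33 and 8.62 TPM with Pink1 siRNA. THBS1, thrombospondin 1, had 226, 269 and 277 TPM with the double siRNA, against 143, 161 and 161 TPM with Pink1 siRNA. The groups did not overlap for these 3 genes. The others on the higher side were C5orf46, ANKZF1, SLC22A3, NREP, PPP1R13L and COL4A4, with log2 differences between 0.82 and 1.09 and adjusted p between 0.165 and 0.237.

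On the lower side, APIP, an enzyme of methionine salvage, had 9.65, 10.47 and 11.4 TPM with the double siRNA, against 26.6, 28.5 and 17.5 TPM with Pink1 siRNA (adjusted p = 0.0573). ITGB8, an integrin subunit that activates TGF-beta, had 6.48, 6.98 and 6.51 TPM with the double siRNA, against 13.2, 11.9 and 11.1 TPM with Pink1 siRNA. IDH2, the mitochondrial isocitrate dehydrogenase that makes NADPH, had 33.1, 32.6 and 32.6 TPM with the double siRNA, against 52.96, 58.7 and 73.6 TPM with Pink1 siRNA. For these genes too the groups did not overlap. FBN2, HIPK2, LAMTOR1, SNN and MYO7A had log2 differences between -0.89 and -0.77 with adjusted p between 0.103 and 0.165. The small nucleolar RNA SNORA80B was listed at 0 in all double siRNA samples, against 10.2, 24.7 and 11.3 TPM with Pink1 siRNA, but also at 0 in all scramble samples.

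The NRF2 target lists hold 51 genes, of which 48 are in the table and 42 were tested. NQO1 was the 1 called member (0.0434% of all genes were called), and it had the smallest p of the comparison. In 11 members the double siRNA samples all lay below the Pink1 siRNA samples, and in none did they all lie above; over all genes these shares were 5.68% and 3.18%. In all, 32 of 42 had a log2 difference below 0 and 10 above 0, with a median of -0.14 (all genes -0.01). Without double siRNA sample 1 this count was 22 below 0 (median -0.05), and without double siRNA sample 3 it was 38 (median -0.29), so it moved with the samples that stand apart. With Nrf2 siRNA against scramble, 31 of the 42 were below 0 (52.0% of all genes were above 0), 3 were called lower, and the median was -0.20; 26 were below 0 in both comparisons.

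The antioxidant response element was searched as TGACNNNGC on both strands in the window from 250 bases before to 50 bases after the start sites given by RefSeq (GRCh38.p14). It was found for 14 of the 34 tested NRF2 targets with a sequence (41.2%), against 19.5% of the tested genes and 16.1% of 27305 genes with a sequence. Among targets whose double siRNA samples all lay below the Pink1 siRNA samples it was found for 3 of 9 (33.3%), and among the other targets for 11 of 25 (44.0%). These counts are too small to tell the sets apart, and the window leaves out elements farther away. Of the 4 called genes with a sequence, 0 had a match. Matches of TXNRD1 and ME1, targets lower in every double siRNA sample, are printed here to show where the element lies. They run in the direction of transcription, in lower case with the matching letters in capitals. TXNRD1 has a match before each of 2 start sites, and a further match beside its first start site (GCTCCGTCA) and another in ME1 after its start site (GCACCGTCA), both on the opposite strand, lie outside the stretches printed. A match is a description of letters and not proof of binding; the ME1 match also contains TGACTCA, which AP-1 factors are known to bind.
TXNRD1, first start, chr12:104215620-104215748, plus strand: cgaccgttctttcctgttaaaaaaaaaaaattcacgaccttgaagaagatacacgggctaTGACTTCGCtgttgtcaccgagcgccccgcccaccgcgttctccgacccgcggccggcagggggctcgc
TXNRD1, second start, chr12:104286870-104286998, plus strand: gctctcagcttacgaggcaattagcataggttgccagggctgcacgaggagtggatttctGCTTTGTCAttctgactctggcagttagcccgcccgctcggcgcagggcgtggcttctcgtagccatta
ME1, chr6:83431120-83431248, minus strand: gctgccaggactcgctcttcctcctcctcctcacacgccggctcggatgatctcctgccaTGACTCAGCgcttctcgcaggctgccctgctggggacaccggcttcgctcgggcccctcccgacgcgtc

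**Figure D2:**
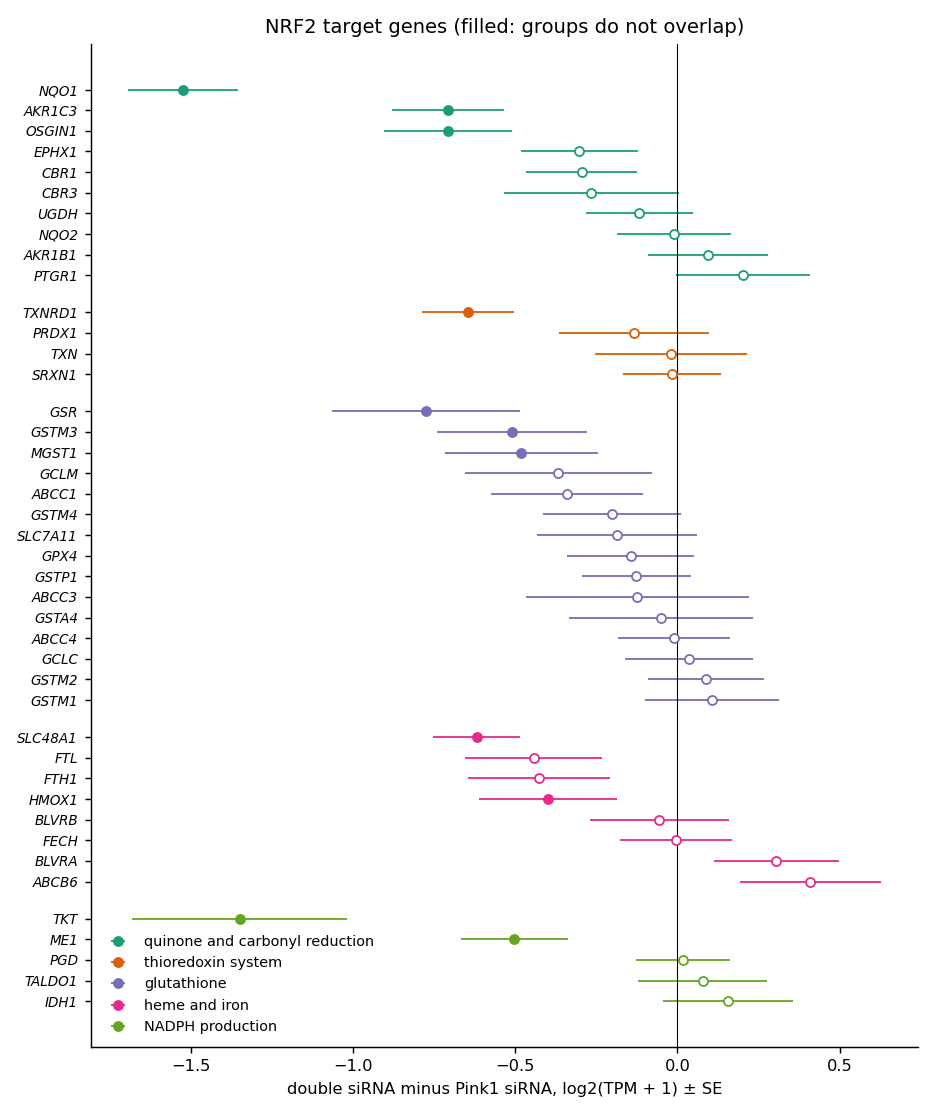
Log2(TPM + 1) difference of double siRNA minus Pink1 siRNA for the 42 tested NRF2 targets (points) with its standard error (bars), grouped by function; filled points are genes whose samples do not overlap. Of the 42, 32 lie below 0, and the 11 filled points all do.

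In the thioredoxin arm, TXNRD1, thioredoxin reductase, had 301, 383 and 355 TPM with the double siRNA, against 499, 549 and 574 TPM with Pink1 siRNA. The groups did not overlap (log2 difference -0.65, SE 0.14), but limma did not call it (adjusted p = 0.196). Against scramble, Nrf2 siRNA lowered TXNRD1 to 307, 246 and 284 TPM, against 529.9, 514 and 497 TPM, which was called (adjusted p = 0.0236). PRDX1, SRXN1 and TXN, the other members, had log2 differences between -0.13 and -0.02.

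Among the quinone and carbonyl reductases after NQO1, AKR1C3 had 19.5, 31.2 and 31.4 TPM with the double siRNA, against 46.9, 45.5 and 40.8 TPM with Pink1 siRNA (adjusted p = 0.292). AKR1C3 belongs to a family of near-identical genes whose reads the counting could split, so its level is uncertain. OSGIN1, an oxidative stress induced growth inhibitor, had 3.49, 3.15 and 2.67 TPM with the double siRNA, against 5.32, 6.70 and 5.11 TPM with Pink1 siRNA. Neither was called, though neither overlapped.

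In glutathione metabolism, GSR, glutathione reductase, had 14.1, 18.95 and 5.99 TPM with the double siRNA, against 21.1, 21.8 and 19.97 TPM with Pink1 siRNA. Its lowest value was that of double siRNA sample 3. MGST1 had 73.7, 127 and 141 TPM with the double siRNA, against 159, 161 and 141 TPM with Pink1 siRNA, so that sample 3 of each group nearly touched. The subunits of glutamate-cysteine ligase, which starts glutathione synthesis, overlapped: GCLM had a log2 difference of -0.37, which was -0.12 without Pink1 siRNA sample 3 and -0.66 without Pink1 siRNA sample 1, and GCLC of 0.04. GSTP1, the list's most abundant member, had 972, 883 and 1272 TPM with the double siRNA, against 996, 1072 and 1331 TPM with Pink1 siRNA.

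In heme and iron handling, the heme transporter SLC48A1 had 11.4, 12.4 and 11.7 TPM with the double siRNA, against 16.02, 19.1 and 21.4 TPM with Pink1 siRNA, without overlap (adjusted p = 0.196). HMOX1, heme oxygenase 1, had 9.59, 9.89 and 7.84 TPM with the double siRNA, against 10.8, 11.6 and 14.6 TPM with Pink1 siRNA. The ferritin chains FTL and FTH1 overlapped; FTL had 1083, 1405 and 2156 TPM with the double siRNA, against 1837, 1953 and 2301 TPM with Pink1 siRNA, with double siRNA sample 3 the high one.

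Among the NADPH genes, double siRNA sample 3 was again the lowest for TKT. TKT, transketolase of the pentose phosphate pathway, had 280.5, 281 and 92.6 TPM with the double siRNA, against 412, 506 and 586 TPM with Pink1 siRNA (log2 difference -1.35, SE 0.33, adjusted p = 0.293), or -0.82 without double siRNA sample 3. ME1, malic enzyme, had 13.4, 15.9 and 20.3 TPM with the double siRNA, against 21.9, 26.6 and 22.3 TPM with Pink1 siRNA, without overlap.

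Among the 11 regulators of the pathway none was called. KEAP1, the repressor of NRF2, had 82.7, 70.6 and 66.9 TPM with the double siRNA, against 79.97, 71.05 and 105 TPM with Pink1 siRNA. TRIM16, a ubiquitin ligase linked to NRF2, had 15.7, 15.3 and 8.88 TPM with the double siRNA, against 19.98, 21.2 and 17.6 TPM with Pink1 siRNA, without overlap. SQSTM1, the p62 adaptor that binds KEAP1, overlapped (log2 difference -0.05).

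In the PINK1 and mitophagy list 0 of 23 tested members were called by limma and 1 had an unadjusted p under 0.05. This part is near the 5.8% of all genes with such a p. That member was BNIP3, a mitophagy receptor that hypoxia induces, with 106, 166 and 205 TPM with the double siRNA, against 85.7, 95.7 and 93.7 TPM with Pink1 siRNA (log2 difference 0.74, SE 0.20, adjusted p = 0.387). Its relative BNIP3L overlapped, with 150.0, 188 and 260.3 TPM with the double siRNA and 128, 148 and 183 TPM with Pink1 siRNA. Of 13 mitochondrial antioxidant genes, IDH2 was the 1 without overlap, and of 44 subunits of oxidative phosphorylation UQCRB and UQCRQ were, both lower; these shares are near the 5.68% of all genes that lay lower without overlap.

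The effect of Nrf2 siRNA was then set beside its effect without Pink1 siRNA. Double siRNA minus Pink1 siRNA and Nrf2 siRNA minus scramble share no samples, although limma pooled the spread of all 4 groups. Against scramble, Nrf2 siRNA changed 46 genes (0.333%), 30 higher (0.217%) and 16 lower (0.116%). In that comparison 1103 genes were higher (7.99%) and 584 lower (4.23%) at an unadjusted p under 0.05, and the groups did not overlap in 1885 higher (13.6%) and 1279 lower genes (9.26%). All 16 lower genes were also lower with the double siRNA than with Pink1 siRNA, and in all 16 the groups did not overlap (5.68% of all genes lay lower in this way). The 16 include NFE2L2, the siRNA's own target. Of the 30 higher genes, 25 had the same sign (47.7% of all genes were above 0). In 17 of the 30 the groups did not overlap in that direction (3.18% of all genes). The genes called in both comparisons were NQO1, SCG2, MMP2 and IGFBP5; these 4 make up 66.7% of the 6 and 8.70% of the 46. The count of genes with the same sign, 41 of 46, was 42 without double siRNA sample 1 and 38 without double siRNA sample 3.

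**Figure D3:**
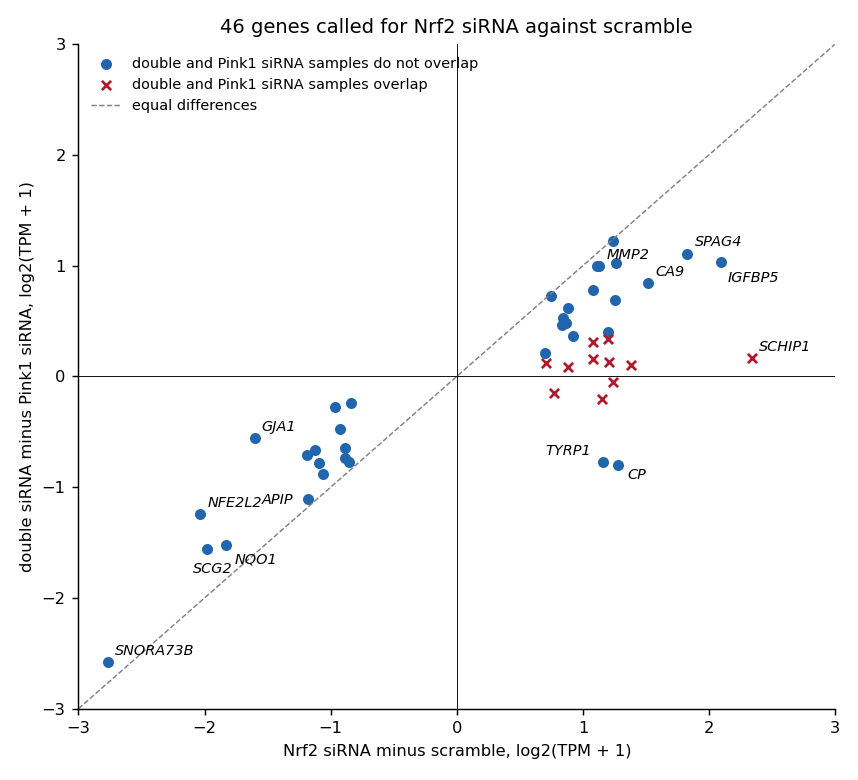
Log2(TPM + 1) difference of double siRNA minus Pink1 siRNA (vertical) against that of Nrf2 siRNA minus scramble (horizontal) for the 46 genes called in the second comparison. The 16 genes on the left all lie below 0 on the vertical axis, while 5 of the 30 on the right do, with TYRP1 and CP lowest; the points were selected on the horizontal axis.

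The differences were smaller on the Pink1 siRNA background in 46 of the 46. Their median was 0.38 with the double siRNA against Pink1 siRNA and 1.14 with Nrf2 siRNA against scramble for the 30 higher genes, and -0.75 and -1.11 for the 16 lower ones. These genes were selected for a large difference in the second comparison, so the sizes are not like for like. Some were near equal: FGF1 had log2 differences of 1.22 and 1.23, THBS1 of 0.72 and 0.75, and APIP of -1.10 and -1.18. Others had little difference on the Pink1 siRNA background. SCHIP1 had 2.86, 4.005 and 5.21 TPM with the double siRNA, against 3.87, 3.32 and 3.05 TPM with Pink1 siRNA, but 16.5, 15.3 and 32.4 TPM with Nrf2 siRNA, against 2.63, 3.69 and 3.31 TPM with scramble. TYR, the first enzyme of melanin synthesis, had 3.75, 3.69 and 4.82 TPM with the double siRNA and 3.33, 3.81 and 4.01 TPM with Pink1 siRNA. It had 3.19, 2.65 and 2.10 TPM with Nrf2 siRNA, against 0.195, 0.545 and 0.465 TPM with scramble. SCHIP1 and TYR were singled out after their values were seen. Over all 13810 genes the 2 sets of differences correlated with r = 0.170, and with r = 0.345 over the 4935 genes of at least 20 TPM, as a description across genes that are not independent.

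The difference between the 2 effects was tested as an interaction. None of the 13810 genes was called by limma (0.0%), and 753 (5.45%) had an unadjusted p under 0.05, 191 above (1.38%) and 562 below 0 (4.07%). The smallest p belonged to TYRP1 and CP. TYRP1, an enzyme of melanin synthesis, had 24.4, 20.8 and 34.5 TPM with the double siRNA, against 40.01, 43.6 and 52.99 TPM with Pink1 siRNA, and 24.6, 23.9 and 21.1 TPM with Nrf2 siRNA, against 9.77, 8.29 and 11.7 TPM with scramble. The 2 effects had opposite signs without overlap in either, and the double siRNA and Nrf2 siRNA samples overlapped. The interaction was -1.93 (SE 0.27, adjusted p = 0.0558), with adjusted p between 0.0141 and 0.462 over 16 alternatives. CP, ceruloplasmin, a ferroxidase that carries copper, had 14.2, 23.8 and 22.3 TPM with the double siRNA, against 37.4, 31.5 and 36.1 TPM with Pink1 siRNA. It had 25.9, 26.4 and 29.8 TPM with Nrf2 siRNA, against 14.3, 9.02 and 9.36 TPM with scramble, for an interaction of -2.08 (SE 0.29, adjusted p = 0.0558). SLC7A8, an amino acid transporter singled out with CP after its values were seen, had 44.4, 35.8 and 33.5 TPM with the double siRNA, against 61.8, 57.2 and 81.8 TPM with Pink1 siRNA, and 39.3, 30.6 and 31.6 TPM with Nrf2 siRNA, against 20.04, 17.1 and 14.00 TPM with scramble.

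Genes of the RPE list divided. In 6 of 17 tested members the double siRNA samples all lay below the Pink1 siRNA samples (5.68% of all genes did), and in 1, RLBP1, they all lay above; none was called. The median difference was -0.13, but 0.08 without double siRNA sample 1 (9 of 17 above 0) and -0.25 without double siRNA sample 3, so its sign rests on sample 1. The 6 were TYRP1, TSPAN10, MYO7A, GPNMB, SLC45A2 and SERPINF1. TSPAN10, a tetraspanin of pigment cells, had 72.7, 58.02 and 47.1 TPM with the double siRNA, against 94.02, 101 and 143 TPM with Pink1 siRNA. GPNMB, a melanosome glycoprotein, had 412, 607 and 668 TPM with the double siRNA, against 804, 883 and 875 TPM with Pink1 siRNA. Melanosome genes such as TYR and PMEL overlapped, as did MITF and OTX2. With Nrf2 siRNA against scramble, 8 of the 17 did not overlap, all higher (13.6% of all genes were), and the median was 0.28.

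Several matrix genes also lay apart; of all genes 3.18% were higher and 5.68% lower without overlap. Of 14 matrix proteases and inhibitors MMP2 was called, and PLAT and ADAMTS5 did not overlap, all higher. Of 15 matrix glycoproteins limma called 0, and 6 higher and 2 lower had an unadjusted p under 0.05 (2.44% and 3.36% of all genes). FN1, THBS1, SPARC and CCN2 did not overlap and were higher, and FBN2 and HMCN1 lower. FN1, fibronectin, had 688, 722 and 1234 TPM with the double siRNA, against 391, 415 and 556 TPM with Pink1 siRNA (log2 difference 0.92, SE 0.23, adjusted p = 0.300). SPARC had 2389, 3066 and 3789 TPM with the double siRNA, against 1705, 1877 and 2195 TPM with Pink1 siRNA. HMCN1, hemicentin, had 17.9, 21.9 and 29.4 TPM with the double siRNA, against 34.2, 44.1 and 51.5 TPM with Pink1 siRNA.

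Of 20 genes for collagen hydroxylation, crosslinking and folding, 16 were above 0 (47.7% of all genes) and 6 did not overlap, all higher (3.18% of all genes): P3H1, P4HA2, P4HB, PLOD1, LOX and PPIB. LOX, the enzyme that crosslinks collagen and elastin, had 512, 634 and 670.4 TPM with the double siRNA, against 366, 412 and 397 TPM with Pink1 siRNA (adjusted p = 0.295). Of 12 collagen chains COL1A1 was higher and COL4A5 and COL12A1 lower without overlap. COL4A5, a basement membrane chain, had 7.29, 11.02 and 8.72 TPM with the double siRNA, against 14.5, 19.9 and 20.9 TPM with Pink1 siRNA. In the mesenchymal list, TAGLN, FAP and ITGA5 of 17 did not overlap and were higher. TAGLN, the actin-binding protein transgelin, had 906, 903 and 964 TPM with the double siRNA, against 374, 352 and 585 TPM with Pink1 siRNA (log2 difference 1.12, SE 0.28, adjusted p = 0.295). With Nrf2 siRNA it had 708, 331 and 506 TPM, overlapping scramble at 584, 350.0 and 378 TPM. VIM and ZEB1 overlapped, and the epithelial cadherin CDH1 was at most 0.795 TPM. Of 10 genes of insulin-like growth factor signalling, IGFBP3, at 571, 783 and 886 TPM with the double siRNA and 404, 457 and 388 TPM with Pink1 siRNA, did not overlap beside IGFBP5; IRS1 was lower without overlap.

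Glycolysis and hypoxia genes lay mostly above 0. Of 22 glycolysis genes 20 had a positive log2 difference (47.7% of all genes did), and 6 did not overlap, all higher (3.18% of all genes). Their median was 0.22. Of 19 hypoxia-induced genes the counts were 16 and 7, again all higher, and the median was 0.38. None was called. An unadjusted p under 0.05 was found for 7 glycolysis and 6 hypoxia genes, all higher (2.44% of all genes). LDHA, lactate dehydrogenase A, had 1539, 2329 and 3321 TPM with the double siRNA, against 1307, 1411 and 1463 TPM with Pink1 siRNA (adjusted p = 0.481). PFKFB4, which makes the activator of phosphofructokinase, had 13.5, 15.3 and 17.02 TPM with the double siRNA, against 5.50, 7.38 and 8.22 TPM with Pink1 siRNA. CA9, a carbonic anhydrase that hypoxia induces, had 293, 266 and 491 TPM with the double siRNA, against 169, 196 and 201 TPM with Pink1 siRNA. Among the others without overlap were ALDOC, TPI1, HK2 and PDK1 in glycolysis and VEGFA, NDRG1, EGLN3 and SPAG4 in the hypoxia list. The list means of double siRNA samples 1, 2 and 3 were 0.08, 0.42 and 0.58 for hypoxia, relative to the Pink1 siRNA mean on the log2 scale, so sample 1 lay within the Pink1 siRNA range of -0.11 to 0.12. For the same list, Nrf2 siRNA samples lay at 0.45, 0.66 and 0.52 and scramble samples at -0.15, -0.15 and -0.10. For glycolysis the double siRNA list means were 0.12, 0.30 and 0.50. Sample 1 again lay within the Pink1 siRNA range, here -0.16 to 0.21. In both lists the means of double siRNA and of Pink1 siRNA rose from sample 1 to sample 3, while the ENSG00000226958 share fell. The part of that share was not tested.

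**Figure D4:**
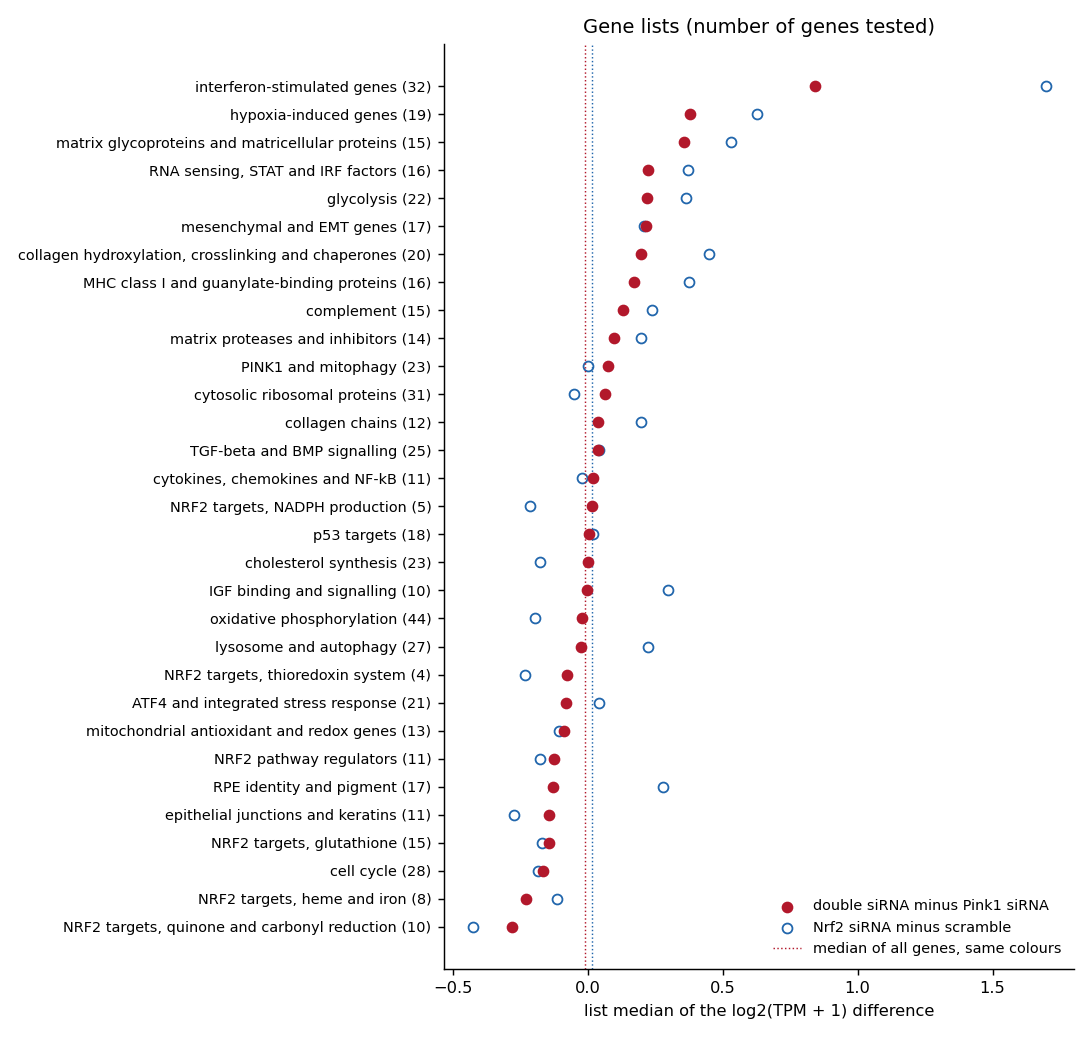
Median log2(TPM + 1) difference of each gene list for double siRNA minus Pink1 siRNA (filled points) and Nrf2 siRNA minus scramble (open points), with the median of all genes as dotted lines and the number of genes tested in brackets. The interferon-stimulated genes lie highest in both, at 0.84 and 1.70, and the RPE list lies at -0.13 and 0.28, the first turning to 0.08 without double siRNA sample 1.

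Interferon-stimulated genes, which cells turn on after sensing foreign RNA or interferon, had the highest list median of those shown by list, 0.84. All 32 tested had a log2 difference above 0, between 0.04 and 2.02, against 47.7% of all genes. Limma called 0, and 4 had an unadjusted p under 0.05, all higher (2.44% of all genes). In 6 of 32 the groups did not overlap, all higher (3.18% of all genes). IFI6 had 353, 463 and 896 TPM with the double siRNA, against 239, 287 and 132 TPM with Pink1 siRNA (log2 difference 1.33, SE 0.55, adjusted p = 0.772). IFITM3, which blocks virus entry, had 398, 468 and 1021 TPM with the double siRNA, against 287, 329.6 and 294 TPM with Pink1 siRNA. BST2, tetherin, had 13.6, 20.2 and 43.2 TPM with the double siRNA, against 7.68, 8.28 and 4.50 TPM with Pink1 siRNA. Double siRNA sample 3 was the highest for all 3 of these genes.

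**Figure D5:**
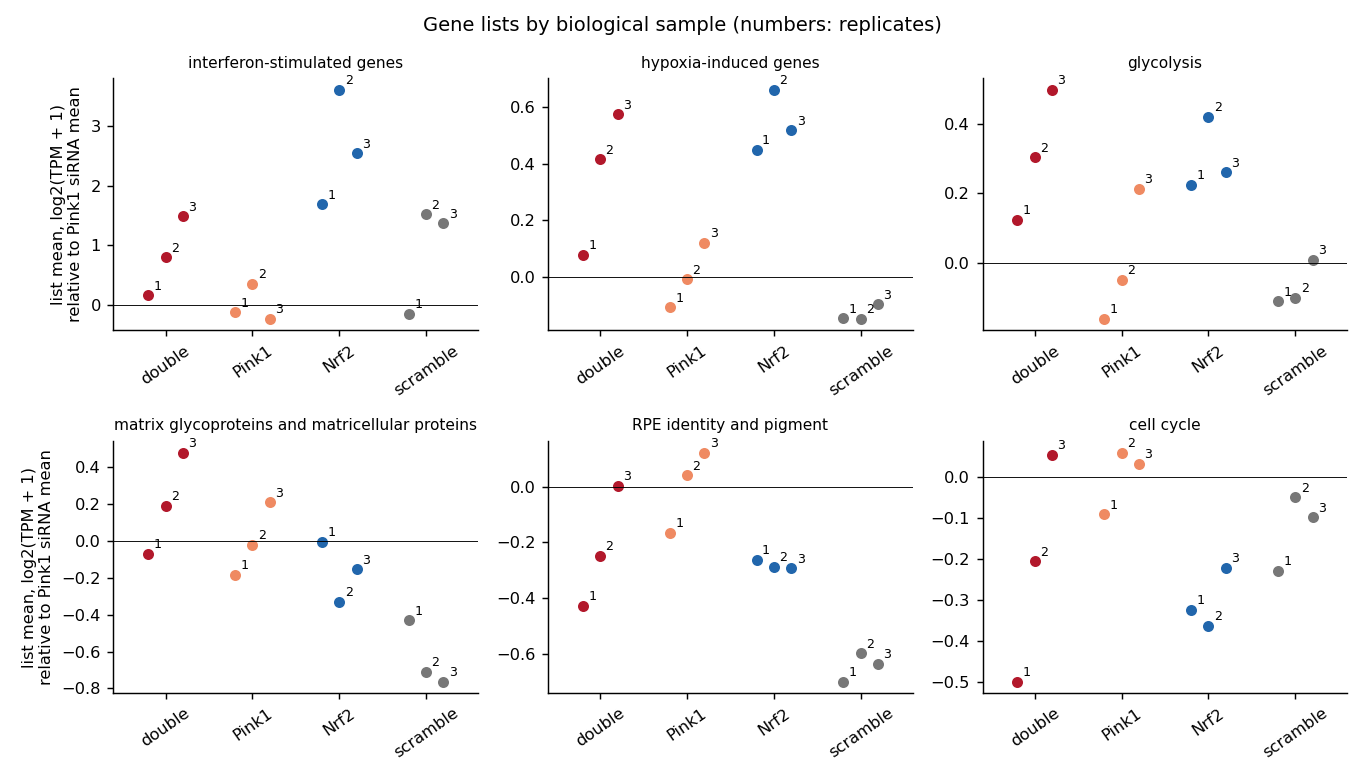
Mean log2(TPM + 1) of 6 gene lists in each biological sample, relative to the mean of the Pink1 siRNA samples, with the replicate number beside each point. The interferon list spans 0.16 to 1.48 with the double siRNA and -0.23 to 0.35 with Pink1 siRNA, and scramble sample 1 lies at -0.15 while the other scramble samples lie at 1.52 and 1.37.

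The spread within groups of this list was large. Relative to the Pink1 siRNA mean, the list mean was 0.16, 0.80 and 1.48 in double siRNA samples 1, 2 and 3, and -0.12, 0.35 and -0.23 in Pink1 siRNA samples. It was 1.69, 3.601 and 2.54 in Nrf2 siRNA samples, and -0.15, 1.52 and 1.37 in scramble samples. Double siRNA sample 1 lay within the Pink1 siRNA range, and scramble samples differed from each other by more than the double siRNA differed from Pink1 siRNA on average. Without double siRNA sample 3 the list median was 0.47, and without double siRNA sample 1 it was 1.15. The macrophage and lysosome gene CD68 moved alongside, with 34.1, 34.8 and 52.5 TPM with the double siRNA, against 25.2, 30.5 and 30.9 TPM with Pink1 siRNA; the blood gene PTPRC was at or near 0. Double siRNA sample 3, the highest in this list, also had the lowest share of ENSG00000226958. The part of CD68-bearing cells or of that share in the result was not tested. In the neighbouring lists, HLA-B and GBP1 of 16 class I and guanylate-binding genes did not overlap, and IRF1 and JAK2 of 16 sensing and signalling genes. All were higher (3.18% of all genes were higher without overlap). Of 15 complement genes 0 did not overlap, and of 11 cytokine and NF-kB genes 1, RELA, did not.

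Cell cycle genes lay below 0 in 26 of 28 (47.7% of all genes lay above 0), with a median of -0.17, against -0.01 for all genes. The 4 that did not overlap were all lower (5.68% of all genes were): E2F1, CCNA2, CDC25A and CDC25C. E2F1, a transcription factor of S-phase entry, had 18.3, 16.3 and 17.2 TPM with the double siRNA, against 23.7, 25.5 and 28.1 TPM with Pink1 siRNA (log2 difference -0.55, SE 0.14, adjusted p = 0.319). The list mean was -0.50, -0.21 and 0.05 in double siRNA samples 1, 2 and 3, relative to the Pink1 siRNA mean, and 16 rather than 26 genes lay below 0 without double siRNA sample 1. In these bulk samples, fewer cells of a kind and less RNA per cell cannot be told apart.

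Other lists are given with the genes that lay apart; of all genes 3.18% were higher and 5.68% lower without overlap. Of the lists in this paragraph, the small non-coding RNAs and the junction and keratin genes had the largest part without overlap. In the lysosome list CTSO was higher and CTSD and LAMTOR1 lower without overlap, of 27 tested. CTSD, the main lysosomal aspartic protease, had 2263, 1971 and 1349.6 TPM with the double siRNA, against 2501, 2833 and 3423 TPM with Pink1 siRNA (adjusted p = 0.452). Of 21 ATF4 and stress response genes CEBPB and ATF5 were lower without overlap, of 25 TGF-beta and BMP genes SMAD3 was lower, and of 23 cholesterol genes NSDHL was higher and PMVK lower. Of 11 junction and keratin genes CLDN1 was higher, and GJA1 and CGN were lower. None of 18 p53 targets and none of 31 cytosolic ribosomal protein genes was without overlap, and limma called none of them. No member of either list had an unadjusted p under 0.05 (5.8% of all genes did). Of 11 small non-coding RNAs, which this mRNA library captures poorly, SNORA73B, SCARNA1 and RNU4ATAC were lower and SCARNA13 higher without overlap, with SNORA73B listed at 0 in all double siRNA samples.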

How the data were processed

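RNA of ARPE-19 cells was sequenced as stranded mRNA libraries read in pairs, per the labels' protocols. The deposited table holds TPM computed by the authors for 24053 Ensembl identifiers; STAR, RSEM and edgeR, with the builds GRCh37 and hg19, stand in the submitters' processing notes without versions or roles, and the depth is unknown. TPM of technical pairs was averaged. Genes averaging 1 TPM or more over the 12 biological samples, 13810 in all, were fitted on log2(TPM + 1) with limma 3.58.1 (R 4.3.3), with 4 groups and an intensity trend (8 residual and 4.93 prior degrees of freedom), two-sided, with p adjusted over all genes. On simulated data for double siRNA minus Pink1 siRNA over 13810 genes, 79 of 100 genes shifted by 1 log2 unit and 99 of 100 shifted by 2 were called, with 7 false calls. The simulation gave every group the same spread and shifted 200 genes. In the real data the double siRNA samples spread more (median SD 0.316, against 0.173 with Pink1 siRNA) and 6 genes were called. These rates therefore do not tell how many true differences the comparison finds. The members, the 36 gene lists and the tests were chosen with earlier results of these data known. Named genes are NFE2L2, PINK1, up to 12 per direction (called genes by size, then by p, of at least 5 TPM without overlap), members of the NRF2 and PINK1 lists, and for each other list its called members or those with the smallest p and the highest means; other genes named as not overlapping complete a count. Gene names came from a table that matched 22789 identifiers, 19325 with a symbol. Promoter sequences are RefSeq's. A few members of the lists are not reported here.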

Additional observations from a re-analysis of the deposited data

Results flagged for a closer look

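For 7 genes named above, every double siRNA sample lay on one side of every Pink1 siRNA sample while every Nrf2 siRNA sample lay on the other side of every scramble sample, so that the 2 effects of Nrf2 siRNA ran in opposite directions. The test of this difference, the limma interaction, was under 0.05 after adjustment for none of them. TYRP1 had an interaction of -1.93 on the log2 scale (adjusted p = 0.0558). CP had -2.08 (adjusted p = 0.0558), SLC7A8 had -1.75 (adjusted p = 0.0697), and HMCN1 had -1.49 (adjusted p = 0.4995), with 13.3, 9.51 and 11.01 TPM with Nrf2 siRNA, against 8.59, 9.12 and 4.29 TPM with scramble. TSPAN10 had -1.46 (adjusted p = 0.266), with 57.8, 78.1 and 65.8 TPM with Nrf2 siRNA, against 47.6, 40.3 and 48.3 TPM with scramble. MYO7A, a motor protein of melanosome transport, had -1.16 (adjusted p = 0.439), with 8.74, 11.1 and 13.1 TPM with the double siRNA, against 17.5, 19.6 and 26.03 TPM with Pink1 siRNA. CLDN1, a tight junction protein, had 0.996 (adjusted p = 0.544), with 18.4, 28.3 and 29.8 TPM with the double siRNA, against 15.4, 17.8 and 17.9 TPM with Pink1 siRNA. Over all tested genes, 68 had groups without overlap in opposite directions, 58 of them lower with the double siRNA and higher with Nrf2 siRNA. More genes shared a direction, with 158 higher in both and 155 lower in both. Of all genes, 3.18% were higher and 5.68% lower without overlap with the double siRNA. With Nrf2 siRNA against scramble, 13.6% were higher and 9.26% lower. Of the 784 genes lower without overlap with the double siRNA, 58 were higher with Nrf2 siRNA, a smaller part than 13.6%. Of the 439 higher with the double siRNA, 10 were lower with Nrf2 siRNA, a smaller part than 9.26%. The 7 genes thus come from the rarer class.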

How the results depend on the processing

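Depth is unknown in TPM, and the calls rest on 3 samples a group and on a spread shared with the other groups. The 6 calls of double siRNA minus Pink1 siRNA became 13 (8 higher) after median-of-ratios rescaling, 26 (13 higher) after quantile normalization, 21 (10 higher) with ENSG00000226958 removed, 0 in a fit restricted to the compared groups (629 at an unadjusted p under 0.05), 1 with technical replicate 1 alone and 2440 with sample weights. The estimation of those weights did not converge, and double siRNA sample 2 received the highest, 11.4; this setting was not relied on. Without single samples the count lay between 1 (without Pink1 siRNA sample 3; 2 without sample 1, 3 without sample 2) and 19 (without double siRNA sample 1, 14 of them higher, with the median of all genes at 0.09). Between 6 and 8 genes were called with other pseudocounts, no filter, a filter at 5 TPM or technical replicate 2 alone. With the replicate number as a block 1 gene was called; deviations of same-numbered samples correlated at -0.06, 0.11 and -0.07, and not every sample correlated best with its own number, so the numbers were not taken to pair samples. The 0 calls of the interaction became 3 with a filter at 5 TPM (CP, SLC7A8 and TYRP1), 2 after median-of-ratios rescaling, quantile normalization or removal of ENSG00000226958 (CP and TYRP1 each time), 504 with sample weights, and 0 to 1 without single samples; the replicate block gave 0. Changes of sign among the 109 genes recomputed under every setting came in uncalled genes, namely PRDX1 (-0.36 to 0.14 without single samples), SRXN1 (-0.15 to 0.13 without single samples, the positive values being 0.13 without double siRNA sample 1 and 0.025 without Pink1 siRNA sample 2; 0.041 with technical replicate 1 alone), GCLC (-0.081 with technical replicate 2 alone, -0.16 to 0.23 without single samples), TXN (0.18 with technical replicate 1 alone, 0.29 with sample weights, -0.23 to 0.32 without single samples), SQSTM1 (0.011 with sample weights, -0.15 to 0.064 without single samples), FTH1 (0.025 after quantile normalization), IDH1 (-0.049 to 0.416 without single samples), RELB (-0.071 with technical replicate 1 alone), C3 (-0.025) and MDM2 (0.045), both with sample weights. The cause of these changes was not tested.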
